A study of Mus musculus with 6 samples.

Results

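Expression of 9 genes of retinoid metabolism and signalling was examined in mouse alveolar type II cell isolates, from the surfactant-producing epithelium of the lung. The genes were Rdh11, Rdh10, Aldh1a1, Aldh1a2, Aldh1a3, Rbp4, Rarb, Rarg and Stra6, and every probe set that the platform annotation assigns to exactly one of them was used. These were 14 probe sets for 9 genes, out of 45101 probe sets that include 18193 singly named genes. The set was chosen by the measured log2 signals of Rdh11, which were higher after Insig1 deletion, and the other genes were added to see whether the pathway follows. For the 9 genes the difference between genotypes is therefore a description, with no p-value, and p-values are given for retinoid genes outside the set.

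In the Insig1-deleted group, SFTPC-rtTA and (tetO)7CMV-Cre had deleted floxed Insig1 on an Insig2-/- background (Insig1 ∆/∆ /Insig2 -/-). The control group, Insig1 flox/flox /Insig2 -/-, lacked either the rtTA or the Cre transgene. All mice lacked Insig2, were 2 months old, and per the labels received doxycycline between E6.5 and E12.5. Each group had 3 independent pools of type II cell RNA, 1 array per pool, and how many mice made up a pool is not stated. The SFTPC promoter limits deletion to cells that have used it. Because no group carried the full Cre system with intact Insig1, effects of Cre and of Insig1 loss cannot be told apart.

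Retinoids are vitamin A and its derivatives. Retinol travels in blood on RBP4 and can enter cells through STRA6. It is oxidised reversibly to retinal by retinol dehydrogenases such as RDH10, and irreversibly to retinoic acid by the retinaldehyde dehydrogenases ALDH1A1, ALDH1A2 and ALDH1A3. Retinoic acid binds the nuclear receptors RARα, RARβ and RARγ, and in the lung it is known for its part in alveolar formation. RDH11 works mainly in the reducing direction, from retinal to retinol, and also reduces other short-chain aldehydes. In mouse liver it has been described as an enzyme regulated by SREBPs, the transcription factors that INSIG proteins restrain.

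Signals are MAS5 intensities on a linear scale, and a probe set counted as measured when its mean log2 signal over the 6 arrays was at least 8.08, a signal of 271. By this filter 7 of the 9 genes, with 10 of the 14 probe sets, were measured, while all 3 Aldh1a3 probe sets and the Stra6 probe set lay below it. The Insig1 probe set had 1252, 1442 and 1750 in deleted pools, against 2300, 3325 and 2960 in control pools. All deleted pools were lower, with a log2 fold change of -0.95 ± 0.18 (SE) that missed the threshold of 0.05 on the adjusted p (limma adjusted p = 0.068), and no source used here says whether the probes fall within the floxed sequence. All 11 singly named type II markers lay above the filter, with a summed signal of 693294 to 820554 in deleted pools, against 712756 to 837655 in control pools. So did all 8 type I, 14 macrophage, 12 airway, 12 mesenchymal, 7 mesothelial and 10 endothelial markers, so passing the filter does not set the type II label apart from these cells. In isolates that hold several cell types, fewer cells of a type and less RNA per cell cannot be told apart. One pool differed from the rest: on the first principal component control replicate 3 scored 61.5 and the others between -24.5 and 7.64, and 8 of 11 type II markers had their lowest value in it.

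**Figure D1:**
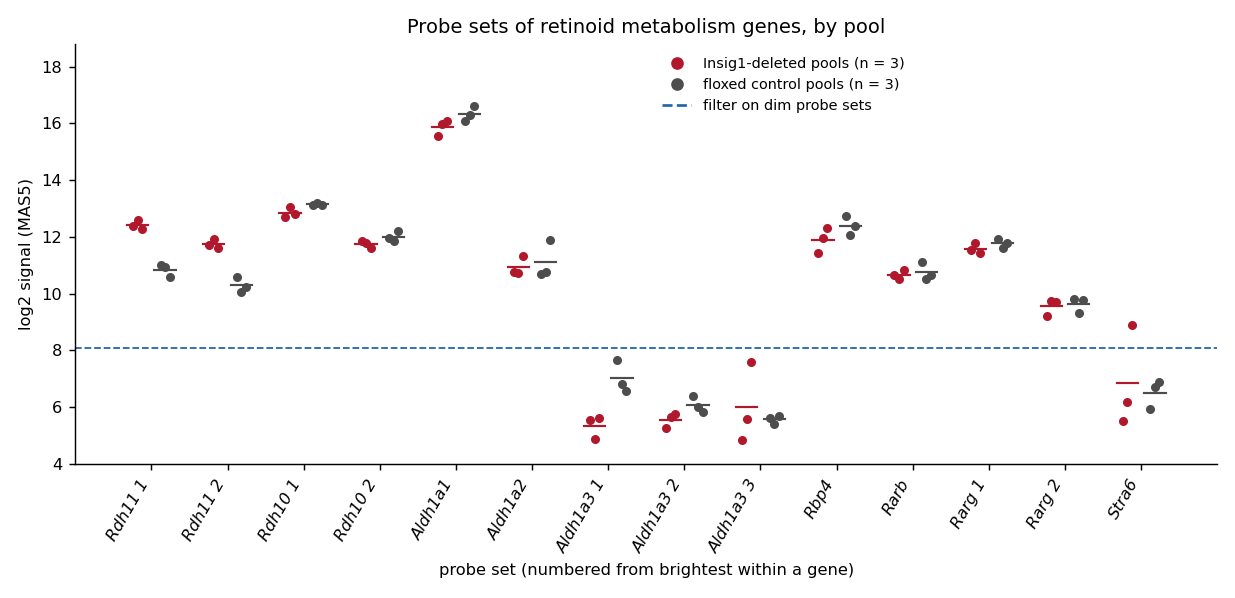
Log2 signal (y axis) of the 14 probe sets of the 9 genes (x axis, numbered from the brightest within a gene), with a point per pool, a bar at the group mean, Insig1-deleted pools left (red) and control pools right (grey). The dashed line is the filter at log2 8.08. Both Rdh11 probe sets separate the groups upward, both Rdh10 probe sets separate them slightly downward, and Aldh1a3 and Stra6 lie below the line but for 1 Stra6 point.

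Rdh11 was about 3 times as high in deleted as in control pools. Its brighter probe set read 5285, 6223 and 4941 in deleted pools, against 2079, 1953 and 1534 in control pools. Even the lowest deleted pool was more than 2 times the highest control pool. The means were 5483 ± 664 in deleted and 1856 ± 285 in control pools (SD, n = 3 each), a fold of 2.97 and a log2 fold change of 1.57 ± 0.16 (SE). The second probe set read 3389, 3846 and 3126 in deleted pools, against 1555, 1079 and 1219 in control pools. It gave a log2 fold change of 1.44 ± 0.17 (SE), within 1 SE of the brighter one. Leaving out any 1 pool kept the brighter probe set between 1.44 and 1.66.

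Among all 12952 genes tested Rdh11 ranked 30th by log2 fold change. Cholesterol synthesis genes driven by SREBP gave a scale for it. Of 9 such genes tested 8 were higher past the threshold (limma), where 0.625% of all genes were, with a median log2 fold change of 1.47 (limma fit, Insig1 left out), and 4 of the 9 had a larger change than Rdh11. Lss, which encodes lanosterol synthase, read 9113, 10170 and 7665 in deleted pools, against 1929.6, 1997 and 1815 in control pools. Its log2 fold change was 2.22 ± 0.13 and that of Sqle, which encodes squalene epoxidase, 1.08 ± 0.10 (SE, limma adjusted p = 4.1e-04 and 0.0037). The size of the Rdh11 difference thus lay inside the range of the sterol genes.

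Single pools were compared as well. The brighter Rdh11 probe set was highest in deleted replicate 2 and lowest in control replicate 3. The second was also highest in deleted replicate 2, but lowest in control replicate 2. Most sterol genes had the extreme pools of the brighter probe set. Of the 10 on the list that includes Insig1, 7 were highest in deleted replicate 2 and 9 were lowest in control replicate 3. A gene higher in every deleted pool has its lowest value in a control pool by definition. Control replicate 3 was also lowest for 8 of 11 type II markers, but for 2 of 14 macrophage and 0 of 12 airway markers. The share over all genes was not computed. Genes were ranked by Pearson correlation of log2 signals with the brighter Rdh11 probe set over the 6 pools, members and unnamed gene models left out. The 5 most alike genes were Nsdhl (r = 0.998), Dus3l (0.998), Fdps (0.996), Cdk6 (0.996) and Msmo1 (0.996). Nsdhl, Fdps and Msmo1 encode enzymes of cholesterol synthesis, Dus3l a tRNA-modifying enzyme and Cdk6 a cell cycle kinase. These correlations describe 6 points that fall into 2 genotypes, and each includes the gap between the genotypes. On deviations from the group means alone, r with Rdh11 over the 6 pools was 0.98 for Nsdhl, 0.99 for Dus3l, 0.93 for Fdps, 0.93 for Cdk6 and 0.90 for Msmo1. The 5 genes were picked for their correlation over these same pools, so these values are partly set by that choice. Nsdhl read 12088, 14064 and 11659 in deleted pools, against 5816, 5148 and 4124 in control pools, the same order of pools within each group as the brighter Rdh11 probe set.

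**Figure D2:**
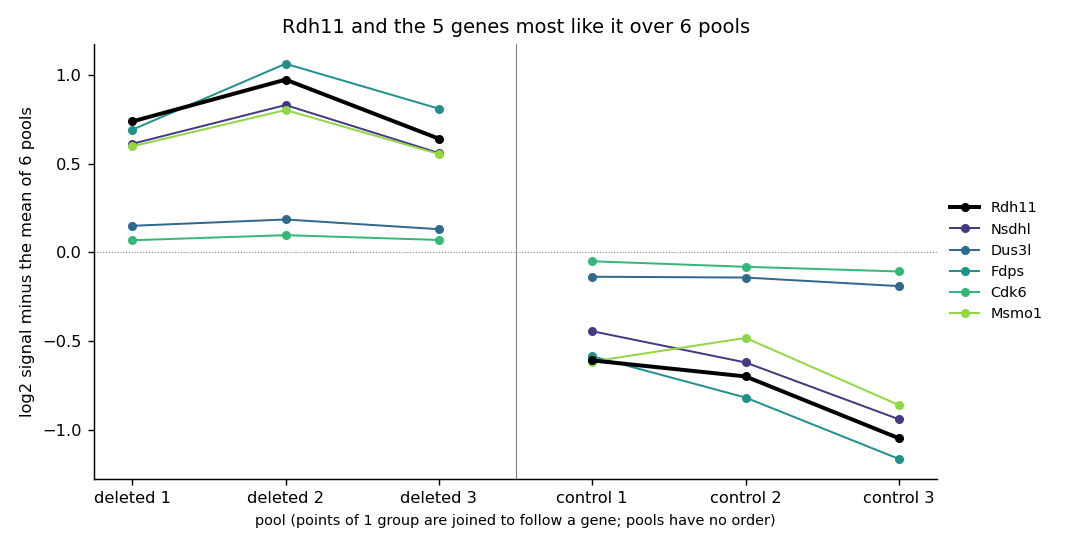
Log2 signal of Rdh11 (brighter probe set, black) and of the 5 genes most like it, for each pool (x axis, deleted pools left). Each gene's mean over the 6 pools was subtracted (y axis). Rdh11 ranges from 0.97 in deleted replicate 2 to -1.05 in control replicate 3; Nsdhl, Fdps and Msmo1 stay close to it, and Dus3l and Cdk6 have the same shape with a smaller range.

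Macrophage markers also lay higher in deleted pools, with 6 of 14 past the threshold (limma), where 0.625% of all genes were higher, and a median log2 fold change of 0.88. Their summed signal was 253385, 250782 and 261760 in deleted pools, against 157792, 210208 and 210732 in control pools, and no marker of the list was below the filter. Of the 14 markers 12 kept their groups apart upward, where 9.2% of all genes did, and 10 were lowest in control replicate 1. Both Rdh11 probe sets had their highest control value in that pool. The part of macrophages in the Rdh11 difference was not tested, and the share of all genes lowest in control replicate 1 was not computed.

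RefSeq (GRCm38.p6) annotates 2 start sites for Rdh11, both on the minus strand of chromosome 12, and their promoter windows are shown because Rdh11 moved with sterol genes. Each runs from 250 bases before to 50 after the start. Capitals mark matches to motifs searched on both strands: the SREBP-1 promoter motif (ACTACA, 2 bases of any kind, TCCC), a sterol regulatory element (ATCAC, 1 base of any kind, CCAC), the E-box CACGTG and, for retinoic acid receptors, a direct repeat (GTTCA, 6 bases of any kind, GTTCA). No matches of different motifs overlapped in the windows printed here.
Rdh11 upstream start, chr12:79191806-79192105: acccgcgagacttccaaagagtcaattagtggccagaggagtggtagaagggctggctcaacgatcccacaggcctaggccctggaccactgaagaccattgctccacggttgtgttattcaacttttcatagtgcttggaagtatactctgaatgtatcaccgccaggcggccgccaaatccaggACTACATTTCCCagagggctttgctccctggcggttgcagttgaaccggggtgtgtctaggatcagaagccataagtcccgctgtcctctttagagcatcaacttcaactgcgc
Rdh11 downstream start, chr12:79190912-79191211: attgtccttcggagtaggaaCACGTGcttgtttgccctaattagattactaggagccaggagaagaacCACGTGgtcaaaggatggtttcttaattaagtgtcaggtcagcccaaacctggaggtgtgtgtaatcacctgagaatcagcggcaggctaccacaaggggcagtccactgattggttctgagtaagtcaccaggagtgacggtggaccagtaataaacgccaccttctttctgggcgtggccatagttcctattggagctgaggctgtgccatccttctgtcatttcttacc
The upstream window holds ACTACATTTCCC at position -64 from the start. The downstream window holds CACGTG at -230 and at -182. Of all 32851 promoter windows 1.81% hold the SREBP-1 motif, 7.15% the E-box and 0.234% the sterol regulatory element, which neither Rdh11 window holds in these letters. None of the 7 sterol genes on the list with a window, and none of the 4 genes most like Rdh11 with a window, holds the SREBP-1 motif. None of them holds the sterol regulatory element in these letters either. The E-box is held by 1 of the 7 (Insig1) and 1 of the 4 (Cdk6). A match describes the sequence and does not show binding. The motif names are labels for the letters searched, and which factor uses a match was not tested.

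The 4 neighbouring genes of Rdh11 examined on chromosome 12, Arg2 and Vti1b on one side and Rdh12 and Zfyve26 on the other, were all measured. Arg2, which encodes a mitochondrial arginase, averaged 6874 ± 1004 in deleted and 3610 ± 761 in control pools (SD, n = 3 each). Its log2 fold change of 0.94 ± 0.18 (SE) missed the threshold (limma adjusted p = 0.066). Vti1b, a SNARE gene, had a log2 fold change of 0.06 ± 0.10 (SE, adjusted p = 0.86, limma). Zfyve26 had 0.30 ± 0.15 (limma adjusted p = 0.46). Rdh12, a close relative of Rdh11 best known from photoreceptors, read 600.0, 282 and 276 in deleted pools, against 307, 379 and 199 in control pools, and had a log2 fold change of 0.34 ± 0.40 (SE, adjusted p = 0.80, limma).

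Rdh10, which encodes the retinol dehydrogenase that runs in the oxidising direction, differed the opposite way and by much less. Its brighter probe set read 6716, 8426 and 7162 in deleted pools, against 8972, 9316 and 9005 in control pools. All deleted pools lay below all control pools. The log2 fold change was -0.30 ± 0.12 (SE). The second probe set read 3690, 3542 and 3090 in deleted pools, against 3987, 3698 and 4723 in control pools, with a log2 fold change of -0.26 ± 0.14 (SE). Both probe sets kept the groups apart, although the highest deleted pool of the second nearly reached the lowest control pool.

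In the fit over all genes the call on Rdh11 follows from how the set was chosen, and is counted here as a description: of the 7 genes measured 1 (Rdh11) was past the threshold upward and none downward, where the background over all genes tested was 0.625% higher and 0.0232% lower, 0.649% in all. Groups that did not overlap were found upward for 1 gene and downward for 1 (Rdh10), where the background was 9.2% and 7.9% of genes, 17.1% in all. Counted by probe set, 2 were higher and 2 lower of the 10 past the filter, where the background was 7.69% and 7.88%. The set was chosen with this contrast, so these counts say nothing further about it. The median log2 fold change of the 7 was -0.19, against -0.0049 for all genes tested. Of the 7, 6 lay below 0, where 6594 of all 12952 genes did. Among these 6, Aldh1a2 and Rarb changed sign when 1 pool was left out.

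Aldh1a1 encodes a cytosolic retinaldehyde dehydrogenase. Its probe set read 48412, 65409 and 70186 in deleted pools, against 68816, 80706 and 101392 in control pools. The groups overlapped, with the highest deleted pool just above the lowest control pool. The log2 fold change was -0.45 ± 0.18 (SE), and ranged from -0.58 to -0.29 when 1 pool was left out. It was -0.29 without deleted replicate 1, which was the lowest of the 6 pools, and -0.30 without control replicate 3, which was the highest. Those are also the extreme pools of the airway markers: 11 of 12 were lowest in deleted replicate 1 and 9 of 12 highest in control replicate 3. The summed airway signal was 478471 to 654786 in deleted pools, against 577975 to 780683 in control pools, 2 of the 12 airway markers were lower past the threshold (limma), where 0.0232% of all genes were, and none was below the filter. Their part in the Aldh1a1 difference was not tested, and the share of all genes with these extreme pools was not computed. The signals also lie near the upper part of the array range, where differences can be compressed. The highest value of an array ran from 141333 in deleted replicate 1 to 197205 in control replicate 3, the same 2 pools. With quantile normalization the log2 fold change of Aldh1a1 was -0.45 ± 0.11 (SE). Aldh1a7, a mouse gene closely related to Aldh1a1, had a log2 fold change of -0.12 ± 0.14 (SE, adjusted p = 0.79, limma).

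Aldh1a2 encodes the main retinaldehyde dehydrogenase of the embryo, known in the lung from mesothelium and mesenchyme. Its probe set read 1739, 1699.9 and 2559 in deleted pools, against 1671, 1740 and 3791 in control pools. Replicate 3 was the highest pool in both groups, and the other 4 pools lay close together. The log2 fold change of -0.18 ± 0.31 (SE) turned to 0.20 without control replicate 3, so its direction depended on that pool.

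Mesothelial markers had the same high pool. In control replicate 3 Aldh1a2 was 2.22 times the mean of the other 2 control pools, and the 7 mesothelial markers were between 1.43 times (Krt19, a keratin that other epithelia share) and 3.23 times (Lrrn4) their own means in those 2 pools. Of these 7 markers 6 were highest of all pools in control replicate 3, all but Upk1b, which was marginally higher in deleted replicate 3; among the 6 were Wt1, a mesothelial transcription factor gene, and Upk3b, a uroplakin gene. Their summed signal was 35135 to 37777 in deleted pools, against 39978 to 68070 in control pools, but most of each sum was Krt19. Krt19 alone read 27638 to 29660 in deleted pools, against 33083 to 52096 in control pools. It was the only marker of the 7 whose groups did not overlap, lower in deleted pools, where 7.9% of all genes were. It was also the 1 marker lower at p below 0.05 before adjustment (limma). None of the 7 passed the threshold (limma), and none was below the filter. Control replicate 3 was also the highest pool for 9 of 12 airway and 4 of 12 mesenchymal markers, and for 1 of 11 type II markers. The share of all genes highest in this pool was not computed. The part of mesothelial or other cells in the Aldh1a2 values was not tested.

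**Figure D3:**
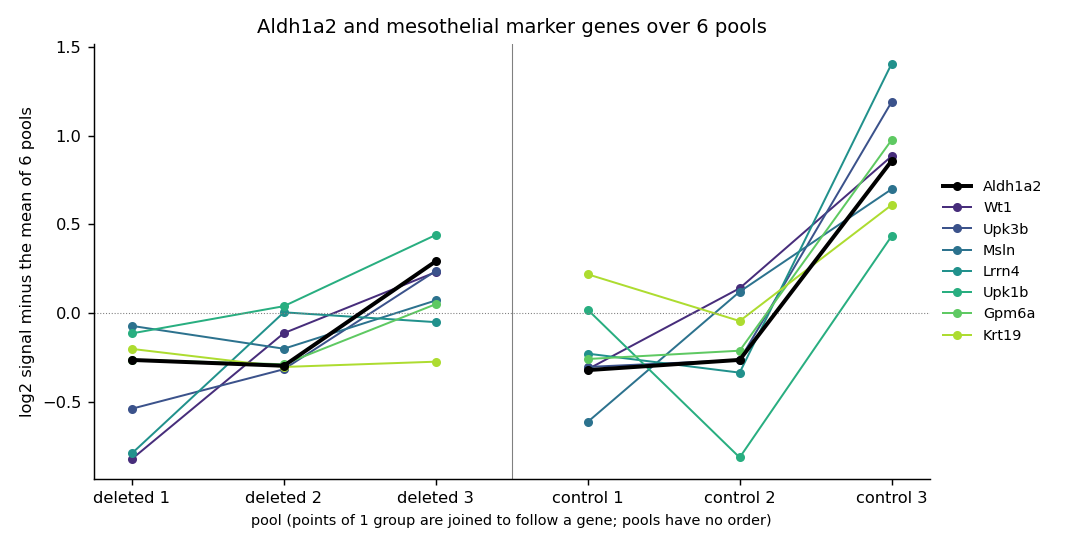
Log2 signal of Aldh1a2 (black) and of 7 mesothelial marker genes, minus each gene's mean over the 6 pools (y axis), for each pool (x axis, deleted pools left). Control replicate 3 lies highest for Aldh1a2, at 0.86, and for 6 of the 7 markers, the exception being Upk1b, at 0.44 in deleted replicate 3 and 0.43 there.

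Aldh1a3, the gene of the third retinaldehyde dehydrogenase, stayed below the filter on all its probe sets. The first read 46.4, 29.2 and 48.7 in deleted pools, against 203, 114 and 95.2 in control pools. The second read 38.0, 50.2 and 54.3 in deleted pools, against 83.1, 64.4 and 56.6 in control pools. The third read 28.4, 47.6 and 195 in deleted pools, against 49.4, 41.9 and 51.4 in control pools. The first and second separated the groups downward and the third did not, and every value was under 271, so no fold is given.

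Rbp4 encodes the carrier that takes retinol through the blood. Its probe set read 2754, 3986 and 5113 in deleted pools, against 6807, 4244 and 5311 in control pools. Both groups were widely spread and overlapped, with a log2 fold change of -0.48 ± 0.24 (SE) that ranged from -0.69 to -0.25 when 1 pool was left out. Its lowest pool was deleted replicate 1, in which 11 of 12 airway and 10 of 12 mesenchymal markers were also lowest. The summed mesenchymal signal was 58995 to 105822 in deleted pools, against 79260 to 111182 in control pools, with no marker below the filter. The part of those cells was not tested, and the share of all genes lowest in deleted replicate 1 was not computed. Stra6, the gene of the RBP4 receptor, read 45.8, 71.8 and 479 in deleted pools, against 61.3, 104 and 119 in control pools. Only deleted replicate 3 was above 271, and its mean over the pools lay below the filter.

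Rarb and Rarg, the receptor genes, differed little between genotypes. Rarb, which is itself a classic target of retinoic acid, read 1604, 1476 and 1841 in deleted pools, against 2238, 1468 and 1608 in control pools. The groups overlapped, with a log2 fold change of -0.09 ± 0.19 (SE). Its sign turned to 0.09 without control replicate 1, the highest pool. The brighter Rarg probe set read 2962, 3520 and 2743 in deleted pools, against 3881, 3097 and 3537 in control pools, a log2 fold change of -0.19 ± 0.15 (SE). The second read 598, 864 and 838 in deleted pools, against 892, 635 and 870 in control pools, a log2 fold change of -0.06 ± 0.23 (SE). Both Rarg probe sets had overlapping groups.

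The Rarb promoter window of RefSeq (GRCm38.p6, minus strand) is shown because it carries a retinoic acid response element beside the start, in capitals, while the gene's signal did not separate the genotypes.
Rarb, chr14:16575427-16575726: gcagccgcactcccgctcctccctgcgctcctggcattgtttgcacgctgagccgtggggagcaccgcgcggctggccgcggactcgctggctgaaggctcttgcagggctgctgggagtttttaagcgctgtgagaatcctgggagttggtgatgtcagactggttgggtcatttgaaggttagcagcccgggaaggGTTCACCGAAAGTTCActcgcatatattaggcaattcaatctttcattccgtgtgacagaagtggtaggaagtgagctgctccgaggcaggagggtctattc
The match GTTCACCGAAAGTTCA begins at position -52. Of all promoter windows 0.0761% hold this direct repeat. In these letters Rarb alone of the 7 members with a window holds it, and other forms of the element were not searched.

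Outside the set, 47 further genes of retinoid handling were listed with earlier results of these data known, and 24 could be tested. None passed the threshold in either direction (limma, adjusted over all 12952 genes, where 0.625% passed higher and 0.0232% lower), and before adjustment 1 gene, a higher one, had p below 0.05, where 12.1% of all genes did in either direction. Their median log2 fold change was -0.03 with 11 above and 13 below 0, against a median of -0.0049 over all genes. Of the rest 16 lay below the filter, among them Cyp26a1, Ttr and Rara, and 7 were not analysed here.

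The higher gene was Dgat1, an acyltransferase that makes triglycerides and can also esterify retinol. It averaged 4997 ± 832 in deleted and 3852 ± 251 in control pools (SD, n = 3 each), and its log2 fold change was 0.36 ± 0.14 (SE, adjusted p = 0.35, limma). Retsat, which saturates retinol, stood at 0.39 ± 0.22 (SE, limma adjusted p = 0.51). Lrat, the main retinol-esterifying enzyme gene, averaged 495 ± 137 in deleted and 710.3 ± 171 in control pools (SD, n = 3 each), and its log2 fold change was -0.53 ± 0.29 (SE, limma adjusted p = 0.51). The coactivator gene Ncoa2 had 0.20 ± 0.16 and the receptor partner gene Rxrb -0.17 ± 0.14 (SE, limma adjusted p = 0.67 and 0.68).

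By role, 9 retinol dehydrogenase genes were tested, with log2 fold changes between -0.21 and 0.34. Dhrs3, whose product reduces retinal and works together with RDH10, was at 0.12 ± 0.16 (SE, limma adjusted p = 0.84). None of 4 ester and carotenoid genes, 3 oxidation and breakdown genes, 3 binding genes and 5 receptor and cofactor genes passed.

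Genes known to respond to retinoic acid were listed separately, 17 in all, of which 9 were tested, and Lrat, Dhrs3, Cyp26b1, Crabp2 and Nrip1 belong to both lists. None passed the threshold (limma), where 0.649% of all genes did. Before adjustment 1 higher and 1 lower gene of the 9 had p below 0.05 (limma), where 12.1% of all genes did in either direction. The median log2 fold change was 0.12, against -0.0049 over all genes. Stra8, known as a retinoic acid target in germ cells, read 467, 861 and 626 in deleted pools, against 212, 416 and 458 in control pools, a log2 fold change of 0.88 ± 0.36 (SE, limma adjusted p = 0.37). Hoxa5, a homeobox gene of lung mesenchyme, read 755, 697 and 725 in deleted pools, against 1016, 884 and 943 in control pools, a log2 fold change of -0.38 ± 0.17 (SE, limma adjusted p = 0.41). These 2 of the 9 response genes tested kept their groups apart, 1 higher and 1 lower, where 9.2% of all genes did so upward and 7.9% downward.

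Tgm2, the tissue transglutaminase gene, depended on control replicate 3. It read 17067, 20000 and 20115 in deleted pools, against 9526, 12582 and 21471 in control pools, a log2 fold change of 0.47 ± 0.25 (SE, limma adjusted p = 0.49). Without control replicate 3 it passed (limma adjusted p = 0.033), the one response gene that passed in any fit that left out a pool. Rarres2, the chemerin gene, had a log2 fold change of -0.44 ± 0.36 (SE, limma adjusted p = 0.69). Cyp26b1, the retinoic acid hydroxylase gene, stood at 0.52 ± 0.59 and Crabp2, the gene of a cytosolic retinoic acid carrier, at 0.69 ± 0.61 (SE, limma adjusted p = 0.79 and 0.72). Pool values of Cyp26b1 ran from 371 to 1032 in deleted and from 158 to 813 in control pools, and the standard errors of both genes were wider than the 0.16 of Rdh11.

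**Figure D4:**
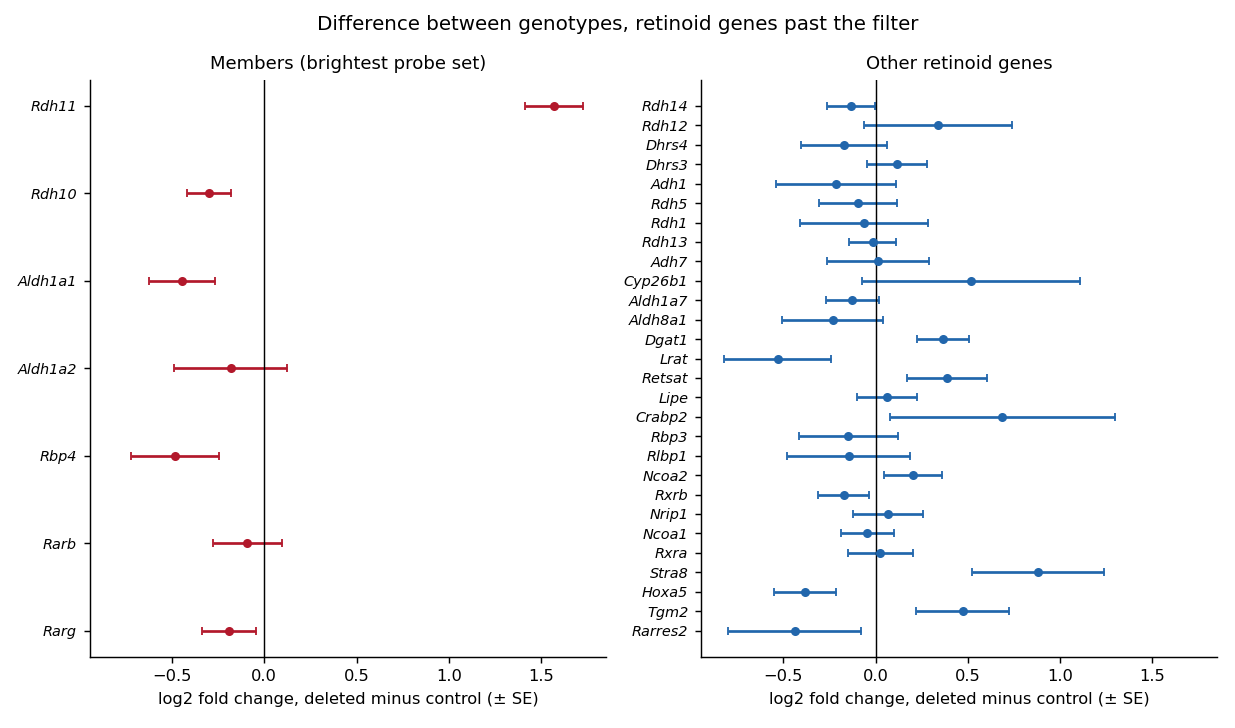
Log2 fold change, deleted minus control, with its standard error (x axis) for the 7 measured genes of the set on their brightest probe sets (left) and for the other retinoid handling and retinoic acid response genes tested (right). Rdh11, at 1.57, stands to the right of all others on both sides; Stra8, at 0.88, comes next.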

How the data were processed

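Biotin-labelled RNA from 6 pools was hybridised to Affymetrix arrays, per the labels. The deposited values are probe set signal intensity from MAS5, per the submitters' processing notes; its version and settings are not given in the sources used here. As the values show, arrays share a trimmed mean of 1500 (2nd to 98th percentile), and array medians ran from 426 to 479. Signals under 1 were set to 1, log2 was taken, and nothing was normalized further. Probe sets with a mean log2 signal below the 40th percentile (8.08) were left out, which kept 27022, and each of 12952 genes was represented by its brightest singly named probe set. Names came from the platform annotation.

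The genotype comparison used R 4.3.3 and limma 3.58.1, with eBayes run with an intensity trend, two-sided, Benjamini-Hochberg over all genes, threshold 0.05. Member standard errors come from the same fit over 27022 probe sets. An exact two-sided permutation of 3 against 3 cannot go below 0.1, so none was run. The number of arrays limits the precision. The members and all lists were chosen with earlier results of these data known. Named were all members, the 5 smallest p of each retinoid list and any gene past the threshold, the 5 genes most like Rdh11, and Lss, Sqle and Insig1; Dhrs3, Cyp26b1, Crabp2, Aldh1a7, mesothelial markers and, by position, the neighbours of Rdh11 were added after values were seen. Alternatives were quantile or median scaling, a pseudocount of 16, no trend, array weights, other filters, the mean over probe sets, a threshold of 0.1, the pool number as a block and each pool left out. Figures used matplotlib 3.10.9.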

Additional observations from a re-analysis of the deposited data

How the results depend on the processing

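Rdh11 kept a log2 fold change between 1.44 and 1.66 under its 15 alternatives. It was the one member past the threshold in each fit, which restates how the set was chosen and is no separate support. Rdh10 (-0.39 to -0.22), Aldh1a1 (-0.58 to -0.28), Rbp4 (-0.69 to -0.25) and Rarg (-0.29 to -0.11) kept their sign, while Aldh1a2 and Rarb changed sign in 1 alternative each, to 0.20 without control replicate 3 and to 0.09 without control replicate 1. No wider retinoid gene passed in any alternative; 24 were tested in most, 40 with no filter, 14 with the filter at the 60th percentile and 22 to 24 when 1 pool was left out. Among response genes the count ranged from 0 to 1 when 1 pool was left out. The count of all genes past the threshold, 84 (81 higher, 3 lower), became 29 without an intensity trend, 259 with array weights, 129 at a threshold of 0.10 and 132 with the replicate block, and ranged from 15 to 477 when 1 pool was left out; the causes were not tested. Same-numbered pools had correlations of deviations from group means of 0.11, 0.05 and 0.13, each above those with other numbers, so the numbers give no more than a hint of pairing. The block changed no call on a member or other retinoid gene. With the block the standard error fell from 0.18 to 0.095 for Aldh1a1 and from 0.31 to 0.17 for Aldh1a2. For Rdh10 and Rarg the standard error rose slightly. Scaling to a common median moved the median of all genes from -0.0049 to 0.07. Dim probe sets such as those of Aldh1a3 and Stra6 are limited by signal over background.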
